A study of Mus musculus and Mus musculus x Mus spretus with 8 samples.

Results

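The 8 cells of the series were split by their own level of Olfr78, the gene of an olfactory-type receptor found in the oxygen-sensing cells of the carotid body. Members were selected on measured Olfr78 RPM, the reads of a gene per 1000000 reads of that cell. Cells at 100 RPM or more formed a group of 7 (cells 1 to 3 and 5 to 8) and cells under 1 RPM a group of 1 (cell 4), so that 8 of 8 cells were used. Olfr78 measured 1203 RPM in cell 8, the lowest of the 7, and 0.202 RPM in cell 4, which is 1 read, and no cell lay between. Since the split was made on a measured value and has 1 cell on one side, what follows describes these cells, with no test.

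Each cell was a single cell of the carotid body of a wild-type mouse pup, aged 4 to 5 days after birth, that the labels call a glomus cell. The strain of 7 cells was C57BL/6, cell 4 among them, and that of cell 2, one of the 7 with Olfr78, was C57BL/6 X SPRET/EiJ. Cells had been picked for expression of 3 glomus cell genes, Th, Uchl1 and Kcnk3, so the presence of these is no finding. The RNA of each cell was copied and amplified by PCR before sequencing. No label names an animal, so the cells cannot be counted as replicates of a condition, and animal, sex and cell-to-cell variation cannot be told apart from the Olfr78 split.

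Glomus cells of the carotid body release transmitter onto sensory nerve endings when blood oxygen falls. They are known for high levels of HIF-2 alpha, encoded by Epas1, and for unusual forms of mitochondrial electron transport subunits, such as those encoded by Ndufa4l2 and Cox4i2. They come from the same neural crest lineage as sympathetic neurons and adrenal chromaffin cells, which also make catecholamines. In that pathway tyrosine hydroxylase, encoded by Th, makes the precursor of dopamine, and dopamine beta-hydroxylase, encoded by Dbh, turns dopamine into noradrenaline.

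The libraries held from 3960200 to 30218206 reads in the 7 cells and 4943206 in cell 4. A gene counted as detected at 1 RPM or more, and by that limit 4040 to 6956 genes were detected in the 7 and 5140 in cell 4, inside their range. A gene with no read may still have been present at up to 3 reads, which is 0.607 RPM in cell 4 and 0.0993 to 0.758 RPM in the 7. That limit covers counting error only, because reads copied by PCR from 1 molecule are not independent and RNA can be lost before it is copied.

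Olfr78 lies at chr7:102738511-102759471 on the minus strand (build mm10, gene model of GENCODE M21). Its level was 1339, 4118 and 2054 RPM in cells 1 to 3 and 3508, 2451, 1949 and 1203 RPM in cells 5 to 8. The 7 cells thus covered a 3.42-fold range of the gene that chose them. The genes used to pick the cells were high on both sides. Th was at 972 RPM in cell 4 and at 764 to 3785 RPM in the 7. Uchl1, the gene of a ubiquitin hydrolase of neurons and endocrine cells, was at 2201 RPM in cell 4, above the 331 to 1971 RPM of the 7. Kcnk3, the gene of an acid-sensitive potassium channel, was at 521 RPM in cell 4 and at 199 to 2212 RPM in the 7. Cell 4 thus passed the authors' choice of cells by the same 3 genes as the 7.

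**Figure D1:**
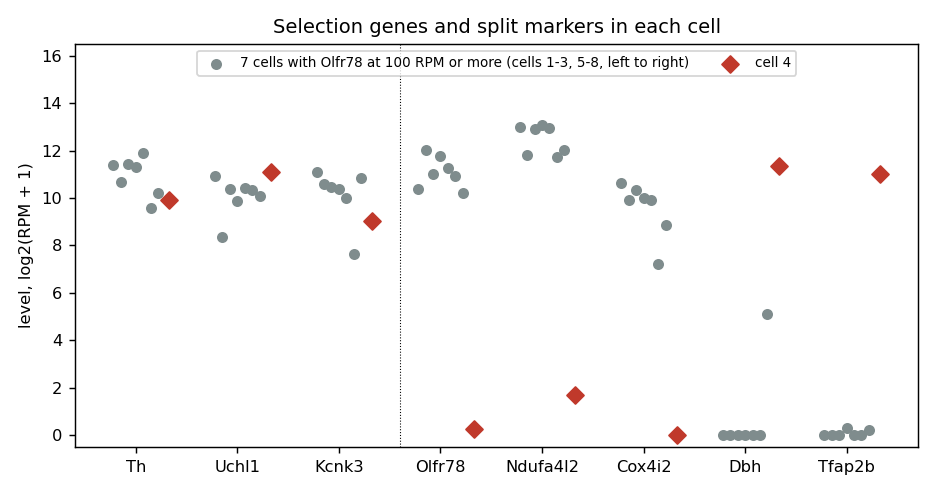
Levels of Th, Uchl1, Kcnk3 and the 5 genes that mark the split, as log2(RPM + 1), with a grey point for each of the 7 cells in order and a red diamond for cell 4. For Th and Kcnk3 cell 4 lies among the 7, while Olfr78, Ndufa4l2 and Cox4i2 are near 0 in cell 4 and Dbh and Tfap2b are high in it.

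The list of unusual mitochondrial genes held 11, of which 3 were detected in all 7 and 5 had no read in any cell. Ndufa4l2 and Cox4i2, both split markers, divided the cells in the same way as Olfr78. Ndufa4l2 (chr10:127514967-127517154, plus strand) was at 8152, 3600 and 7735 RPM in cells 1 to 3 and at 8606, 7941, 3393 and 4217 RPM in cells 5 to 8. In cell 4 it was at 2.23 RPM, from 11 reads, with an exact 95% Poisson interval of 1.11 to 3.98 RPM. Its level was therefore 3476-fold lower than the median of the 7. Cox4i2 (chr2:152754173-152765037, plus strand) was at 1583, 979 and 1276 RPM in cells 1 to 3 and at 1019, 980, 147 and 465 RPM in cells 5 to 8. It had no read in cell 4, so it was at least 242-fold lower there than in cell 7, the lowest of the 7. The third member of that list detected in all 7 was Pcx, the gene of pyruvate carboxylase, which feeds the citric acid cycle, and it is given with the lacked genes below. Outside the list, the core also held the read-through symbol Mettl7a2Higd1c, whose name joins Mettl7a2 and Higd1c, a gene of the hypoxia-inducible domain family. It was at 787 to 2406 RPM in the 7 and had no read in cell 4, at least 1296-fold lower than in the lowest of the 7. Reads counted under Higd1c alone were few, at no more than 14.1 RPM in a cell, and 84.9% of its transcript also occurs in other genes, so what Higd1c adds to the read-through count is uncertain.

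The common relatives of these subunits were present on both sides. Ndufa4, the usual form, was at 15 to 56.4 RPM in the 7 and at 32.8 RPM in cell 4. Cox4i1 was at 127 to 1223 RPM in the 7 and at 489 RPM in cell 4. Of 34 respiratory chain genes, 33 were detected in cell 4, and none lay more than 2 log2 units outside the range of the 7 in either direction. Over all genes, 16.4% of the 1402 detected in all 7 lay that far below the range in cell 4, and 9.79% of the 5140 detected in cell 4 lay that far above it. Without cell 5 or cell 6 the genes that far below the range numbered 346 or 347, against 230 with all 7. Among subunit genes the difference between the sides was thus in Ndufa4l2 and Cox4i2, whereas the ordinary forms had overlapping values.

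Epas1, at chr17:86753700-86833410, held 5590 to 12192 RPM in the 7, with a median of 9089 RPM. In cell 4 it was at 170 RPM, 53.4-fold lower than that median. This was a lower level and not an absence, since 841 reads of Epas1 were counted in cell 4. Arnt2, the gene of a partner protein of the HIF alpha subunits, was at 22 to 1271 RPM in the 7 and had no read in cell 4. On the other side, Egln3, the gene of a prolyl hydroxylase that marks HIF alpha for removal, was at 411 RPM in cell 4 with no read in any of the 7. Siah2, the gene of a ubiquitin ligase that acts on such hydroxylases, was at 333 RPM in cell 4 and at 3.39 RPM in cell 7, with no read in the other 6. Of 32 genes listed as HIF targets, 8 were detected in all 7, and 2 of them (Adm and Car12) were below the range in cell 4, beside the 16.4% of all genes. Pfkfb3, a regulator of glycolysis, was the 1 target above the range of 11 detected in cell 4, beside 9.79% of all genes, at 77.9 RPM in cell 4 with no read in the 7.

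To describe the profile that the 7 shared, genes at 30 RPM or more in every one of them were taken as core genes. There were 560, out of 10768 genes detected in any cell, and they took 29.5 to 37.9% of the reads of each of the 7. They took 24.0% of the reads of cell 4. Even core genes varied between the 7: the median ratio of the highest to the lowest cell was 7.95, and 40 of the 560 stayed under a 3-fold ratio while 208 went over 10-fold. In cell 4, 429 core genes were also at 30 RPM or more, 59 were between 1 and 30 RPM, and 72 were under 1 RPM. These 72, Olfr78 among them, are 12.9% of the core, and 50 of the 72 had no read. Without cell 6 the count of lacked genes was 113. Of all core genes, 285 lay inside the range of the 7 in cell 4, 197 below it and 78 above it.

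After Gnas, the core genes with the highest floor across the 7 were Epas1 and Ndufa4l2, described above. Gnas, the gene of the G protein alpha subunit that stimulates cyclic AMP synthesis, led with 9749 to 29971 RPM in the 7 and 6489 RPM in cell 4. Rgs4, a brake on G protein signalling, was at 802 to 15015 RPM in the 7 and at 1724 RPM in cell 4, inside that range. Ddc, which makes dopamine, was at 1104 to 3079 RPM in the 7 and at 1644 RPM in cell 4. Cyb561, the gene of the electron carrier of secretory granules, was at 1059 to 4324 RPM in the 7 and at 2217 RPM in cell 4. Grina, Hsp90ab1 and Eml5 also had values in cell 4 inside the range of the 7, for example 1121 RPM of the chaperone gene Hsp90ab1 against 888 to 2006 RPM. Several of the core genes with the highest floors were thus at like levels in all 8 cells, with Epas1, Ndufa4l2, Pkib, Itm2b, Chgb and Dgkh among the exceptions.

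Core genes that cell 4 held under 1 RPM are called lacked below. The one with the highest floor was Pkib, which encodes an inhibitor of protein kinase A, the kinase that answers to cyclic AMP. Pkib was at 2376, 4932 and 2153 RPM in cells 1 to 3 and at 2806, 2834, 1778 and 2092 RPM in cells 5 to 8. Cell 4 had 1 read, 0.202 RPM. Tmem59, the gene of a membrane protein of the Golgi and endosomes, was at 497 to 1475 RPM in the 7 and had no read in cell 4, at least 820-fold lower than in the lowest of them. Slc35d3, a gene of the nucleotide sugar transporter family, was the most even of the 3, at 410 to 721 RPM in the 7, with 1 read in cell 4. The gap in these genes was wide next to the spread among the 7, whose SD on the log2(RPM + 1) scale was 0.48 for Pkib, 0.54 for Tmem59 and 0.32 for Slc35d3.

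Promoter windows of RefSeq (GRCm38.p6, 250 bases before to 50 after the gene start) are shown for Pkib, Tmem59 and Slc35d3 as the lacked genes with the highest floors that have an entry, and for Dbh and Tfap2b as genes that went the other way. Capitals mark ACGTG or GCGTG on either strand (CACGT or CACGC when read on the strand shown), the core letters of the site that HIF proteins are known to bind, a search that also picks up the E-box CACGTG. The windows are Pkib at chr10:57631731-57632030 (plus strand), Tmem59 at chr4:107178380-107178679 (plus), Slc35d3 at chr10:19851410-19851709 (minus), Dbh at chr2:27165257-27165556 (plus) and Tfap2b at chr1:19211804-19212103 (plus).
Pkib: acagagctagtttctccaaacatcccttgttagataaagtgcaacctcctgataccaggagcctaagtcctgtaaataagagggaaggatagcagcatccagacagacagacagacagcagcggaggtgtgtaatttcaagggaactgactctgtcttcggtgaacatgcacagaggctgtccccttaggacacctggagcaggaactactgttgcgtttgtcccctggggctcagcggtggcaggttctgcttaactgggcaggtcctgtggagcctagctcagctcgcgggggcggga
Tmem59: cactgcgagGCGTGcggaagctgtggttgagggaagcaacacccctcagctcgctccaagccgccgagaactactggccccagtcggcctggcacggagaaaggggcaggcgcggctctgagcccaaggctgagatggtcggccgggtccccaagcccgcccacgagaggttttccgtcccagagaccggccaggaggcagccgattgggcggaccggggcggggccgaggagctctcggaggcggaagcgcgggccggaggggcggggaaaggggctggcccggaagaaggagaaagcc
Slc35d3: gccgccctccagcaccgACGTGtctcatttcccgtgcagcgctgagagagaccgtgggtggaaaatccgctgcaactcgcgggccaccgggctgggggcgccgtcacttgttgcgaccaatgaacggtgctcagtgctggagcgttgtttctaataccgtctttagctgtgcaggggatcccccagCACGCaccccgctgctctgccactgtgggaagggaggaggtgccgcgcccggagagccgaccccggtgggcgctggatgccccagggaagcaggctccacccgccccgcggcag
Dbh: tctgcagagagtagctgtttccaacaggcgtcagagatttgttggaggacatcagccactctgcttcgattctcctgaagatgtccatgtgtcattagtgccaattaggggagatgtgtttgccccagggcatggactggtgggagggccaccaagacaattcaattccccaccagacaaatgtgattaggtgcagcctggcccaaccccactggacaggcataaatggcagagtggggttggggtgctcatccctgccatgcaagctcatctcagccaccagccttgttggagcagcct
Tfap2b: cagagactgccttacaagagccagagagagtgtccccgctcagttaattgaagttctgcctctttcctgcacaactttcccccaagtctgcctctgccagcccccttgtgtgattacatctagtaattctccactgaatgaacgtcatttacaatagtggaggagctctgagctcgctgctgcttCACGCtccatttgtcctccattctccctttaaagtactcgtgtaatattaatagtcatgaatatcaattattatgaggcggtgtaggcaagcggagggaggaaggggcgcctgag
Tmem59 had 1 match, Slc35d3 had 2, Tfap2b had 1, and the windows of Pkib and Dbh had 0. Among all 32851 windows 43.8% held at least 1 match. Of the 72 lacked genes 62 had an entry, with 85 windows, of which 54.1% held a match. All windows include those of genes not detected in any cell, so the shares are not of like genes. Windows of the other core genes were not compared, and no conclusion is drawn from the difference. A match in these letters is a description of the sequence and not a bound site.

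Some genes of the list of purine, acid and peptide receptors had no read in cell 4. Of 33 measured, 5 were detected in cell 4, 4 of them at 30 RPM or more. Adora2a, the gene of an adenosine receptor that raises cyclic AMP, was at 1251, 633 and 379 RPM in cells 1 to 3 and at 1152, 1975, 45.6 and 75.6 RPM in cells 5 to 8, with no read in cell 4. P2ry12, the gene of an ADP receptor coupled to inhibitory G proteins, was at 63.1 to 1495 RPM in the 7 and had no read in cell 4. Ednra, the gene of an endothelin receptor, was at 20.8 to 157 RPM in the 7, again with no read in cell 4. These are 3 of the 4 receptors of that list that were detected in all 7, a small number to set beside the 16.4% of all genes. Gabbr2, a GABA-B receptor subunit, was the 1 listed receptor above the range, at 5.87 RPM in cell 4.

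Carbonic anhydrases are enzymes that interconvert carbon dioxide and bicarbonate. Their genes Car2 and Car12 showed the same split but varied widely within the 7, while Car4 and Car9 had no read in any of the 8 cells. Car2 and Car12 were the 2 acid-base genes detected in all 7, and both were below the range, beside 16.4% of all genes. Car2 was at 1320, 667 and 224 RPM in cells 1 to 3 and at 1369, 4367, 3.55 and 76.9 RPM in cells 5 to 8, with no read in cell 4. Car12 was at 11.3 to 628 RPM in the 7 and at 0.202 RPM in cell 4. Summed over 15 acid-base genes the level was 0.202 RPM in cell 4 against 728 to 4605 RPM in the 7.

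Further genes below the range included enzymes and receptors of signalling. Dgkg and Dgkh encode diacylglycerol kinases, which remove a lipid messenger made by G protein signalling. Dgkg was at 319 to 1016 RPM in the 7 with no read in cell 4, and Dgkh was at 1017 to 2306 RPM in the 7 and 9.10 RPM in cell 4, 161-fold under the median. Rgs5, which speeds the shut-off of G proteins, was at 672 to 2449 RPM in the 7 and at 42.5 RPM in cell 4. Rgs17, of the same family, went the other way, at 746 RPM in cell 4 and 10.9 RPM in cell 7, with no read in the other 6, and Rgs4 was inside the range. Of 11 G protein and RGS genes detected in all 7, 2 (Gnai2 and Rgs5) were below the range, near the 16.4% of all genes, and of 17 detected in cell 4, 1 was above it. Ntrk3, the gene of the receptor of neurotrophin-3, was at 68.3 to 1604 RPM in the 7 and had no read in cell 4. Thy1, the gene of a surface glycoprotein of neurons and lymphocytes, was at 228 to 1862 RPM in the 7 and had no read in cell 4 either.

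Part of the list of secretory granule genes was lower in cell 4. Of 16 measured, 10 were detected in all 7, and 4 of those 10 (Chgb, Scg2, Ptprn and Resp18) lay more than 2 log2 units below the range, beside the 16.4% of all genes given above. The median log2 difference of the list from the median of the 7 was -2.29, beside 0 for all genes detected in any cell and -0.15 for the 1173 detected in all 8. For the 560 core genes, which include 8 of the list, it was -0.66. Chgb, which encodes the granule protein chromogranin B, was at 1325 to 3572 RPM in the 7 and at 153 RPM in cell 4. Scg2, the gene of secretogranin II, was at 44.9 to 1105 RPM in the 7 with no read in cell 4. Ptprn, the gene of a granule membrane protein, was at 321 to 3933 RPM in the 7 with no read in cell 4. Chga, which encodes chromogranin A, was at 655 RPM in cell 4, within the 591 to 2394 RPM of the 7. Cpe, the gene of a granule enzyme that trims peptide hormones, was at 1149 RPM in cell 4, above the 71.2 to 1079 RPM of the 7. The granule genes thus did not all differ.

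The release machinery was mixed. Of 17 vesicle release genes detected in all 7, 4 (Cplx2, Unc13b, Rims2 and Syp) were more than 2 log2 units below the range in cell 4, not far from the 16.4% of all genes. Cplx2, the gene of a complexin that clamps vesicle fusion, was at 151 to 1683 RPM in the 7 and at 7.28 RPM in cell 4. Snap25, which encodes a core fusion protein, went the other way, at 564 to 2859 RPM in the 7 and 7293 RPM in cell 4, without passing the 2 log2 limit. The summed level of the list was 13757 RPM in cell 4 and 10945 to 15088 RPM in the 7.

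Secreted factors lacked by cell 4 included Adm, Ntn1, Rspo1, Igfbp4 and Nptx1. Adm, the gene of the vasodilator adrenomedullin, was at 80.9 to 2536 RPM in the 7 and had no read in cell 4. Rspo1, which encodes a Wnt signalling enhancer, was at 89.6 to 1671 RPM in the 7 with no read in cell 4. Ntn1, the gene of the axon guidance protein netrin-1, was at 80.2 to 543 RPM in the 7 with no read in cell 4, and its receptor gene Unc5c was at 15.1 to 545 RPM with none. Pcx was at 233 to 4663 RPM in the 7 and had no read in cell 4, at least 385-fold lower than in the lowest cell.

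Of the 30 genes of the glomus cell list, 22 were detected in all 7 and 12 of these were more than 2 log2 units below the range in cell 4 (16.4% over all genes), while none of the 16 detected in cell 4 was above it. The list includes Olfr78, and it was drawn up with earlier results of these data known, so its count supports nothing about its direction. Its summed level was 43694 to 81598 RPM in the 7 and 18791 RPM in cell 4.

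**Figure D2:**
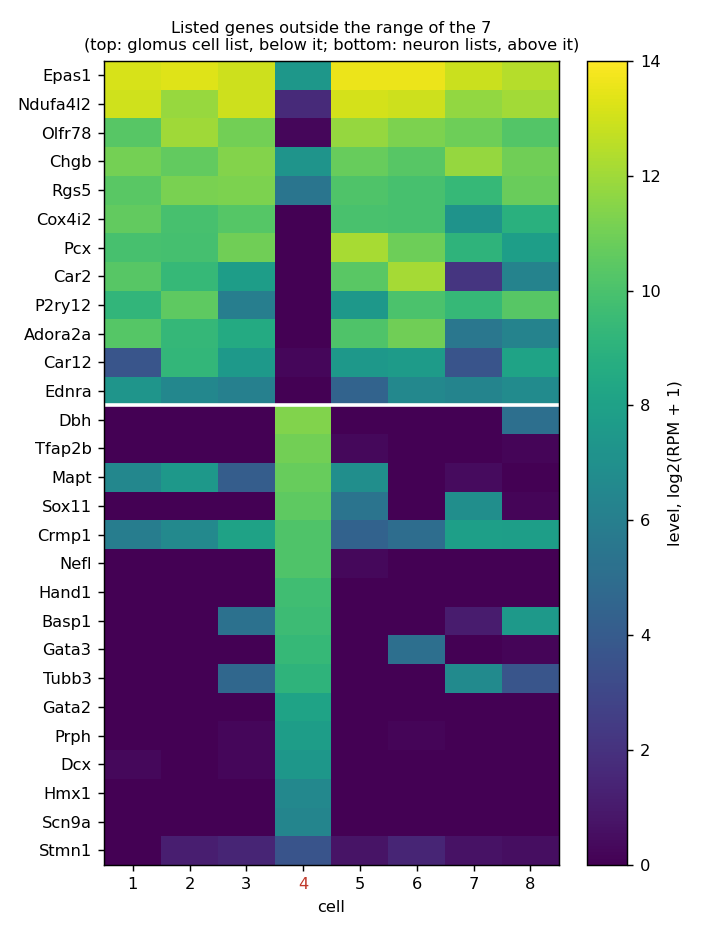
Levels as log2(RPM + 1) by colour, with a column for each cell, of the glomus list genes that were below the range of the 7 in cell 4 (above the white line) and listed neuron and transcription factor genes named in the text that were above it (under the line). In the upper block cell 4 is dark where the 7 are light, and in the lower block the reverse, with scattered light squares in other cells for Crmp1, Mapt, Basp1, Tubb3 and Sox11.

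Genes that cell 4 held at 30 RPM or more and that were under 1 RPM in every one of the 7 are called added. There were 143, which is 4.18% of the 3419 genes at 30 RPM or more in cell 4, and they took 3.42% of its reads. For 104 of them no read was counted in any of the 7. Their median level in cell 4 was 151 RPM, 94 were at 100 RPM or more and 31 at 300 RPM or more. Below, an added gene is named with its level in cell 4, and the 7 cells are given where they had reads.

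Added genes included 4 transcription factors listed for the sympathoadrenal lineage (Tfap2b, Hand1, Gata2 and Hmx1). Tfap2b, which encodes AP-2 beta and lies at chr1:19208914-19238576, was at 2045 RPM in cell 4, from 10109 reads. Over the 7 it had 1 read in cell 5 (0.223 RPM) and 1 in cell 8 (0.145 RPM). Hand1, a basic helix-loop-helix factor gene, was at 834 RPM in cell 4 with no read in the 7, at least 1101-fold higher than the limit of 3 reads in the shallowest of them. Gata2, a zinc finger factor gene of the same lineage, was at 279 RPM and Hmx1, a homeobox gene, at 92.0 RPM in cell 4, both with no read in the 7. Gata3 was at 661 RPM in cell 4 and at 33.9 RPM in cell 6, and Sox11 was at 1464 RPM in cell 4, 120 RPM in cell 7 and 41.1 RPM in cell 5. Of 13 listed factors detected in cell 4, these 6 were more than 2 log2 units above the range, beside the 9.79% of all genes. The list includes the split marker Tfap2b and was drawn up with earlier results known, so its count supports nothing about its direction.

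Other listed factors were detected on both sides at levels closer to each other. Phox2a, a homeobox gene needed for noradrenergic cells, was at 637 RPM in cell 4 and 76.5 to 762 RPM in the 7. Hand2, the relative of Hand1, was at 122 RPM in cell 4, a little under the 135 to 744 RPM of the 7. Isl1, a LIM homeobox gene, was at 1110 RPM in cell 4, above the 53.6 to 894 RPM of the 7 by a narrow margin.

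Of 17 catecholamine genes 5 were detected in all 7 and 11 in cell 4. Of the 11, Dbh was the 1 above the range (9.79% over all genes), and of the 5 none was below it. Dbh, at chr2:27165233-27183200, was at 2588 RPM in cell 4 from 12791 reads, and among the 7 it was at 33.2 RPM in cell 8 with no read in the other 6. Slc6a2, the gene of the noradrenaline transporter, was at 1873 RPM in cell 4, but it was also at 1230 RPM in cell 7, 341 RPM in cell 3, 322 RPM in cell 2 and 13.1 RPM in cell 8, with 1 read in cell 5 and none in cells 1 and 6. Slc18a2, which encodes the vesicular monoamine transporter, was at 2366 RPM in cell 4 and 164 to 2564 RPM in 6 of the 7, with no read in cell 7.

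Genes of nerve growth and of the neuronal cytoskeleton were higher in cell 4 for part of the list. Of 19 neurofilament and growth genes detected in cell 4, 7 (Nefl, Prph, Stmn1, Mapt, Crmp1, Dcx and Basp1) were more than 2 log2 units above the range, beside 9.79% of all genes, and none of the 8 detected in all 7 was below it. Nefl, the light neurofilament gene, was at 1143 RPM in cell 4, with 1 read in all of the 7 together. Prph, which encodes peripherin, a filament protein of peripheral neurons, was at 223 RPM in cell 4 with 1 read each in cells 3 and 6. Dcx, the gene of a microtubule protein of young neurons, was at 168 RPM in cell 4 and at no more than 0.253 RPM in the 7. Mapt, the gene of tau, was at 1736 RPM in cell 4 and at 178, 119 and 89.6 RPM in cells 2, 5 and 1. Stmn1 was at 11.3 RPM in cell 4, and 48.8% of its transcript occurs in other genes, so its level is uncertain, as 32.8% does for Nefl.

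Of 8 tubulin genes detected in cell 4, 2 were more than 2 log2 units above the range, Tubb5 and Tubb3, beside 9.79% of all genes. Tubb5, a beta-tubulin gene, was at 9429 RPM in cell 4 and at 4.83 to 1578 RPM in the 7, 8.43-fold above their median. Tubb3, the neuronal beta-tubulin gene, was at 544 RPM in cell 4, at 103, 24.1 and 11.9 RPM in cells 7, 3 and 8, and at 0 in the other 4. Tuba1a was at 1368 RPM in cell 4 and at 61.1 to 624 RPM in the 7, with 80.6% of its transcript shared with other genes. Summed over 14 tubulin genes the level was 12362 RPM in cell 4 and 338 to 2743 RPM in the 7. Map1b and Dpysl3, both of growing neurites, were at 2576 and 2539 RPM in cell 4, above 256 to 950 RPM and 92.4 to 877 RPM in the 7. Gap43, another growth gene, was at 2504 RPM in cell 4 but at 2201 RPM in cell 3, so not all growth genes set cell 4 apart.

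Axon guidance and adhesion genes differed in both directions. Of 15 detected in cell 4, 4 (Nrp1, Plxna4, Efnb2 and Tenm3) were above the range, beside 9.79% of all genes, 2 of the 7 detected in all 7 cells (Ntn1 and Unc5c) were below it, and the median log2 difference of the list was 0. Nrp1, which encodes neuropilin-1, a receptor for semaphorins and vascular growth factors, was the highest added gene at 3464 RPM, from 17123 reads, with at most 2 reads in any of the 7. Plxna4, the gene of a plexin that partners neuropilin-1, was at 3356 RPM in cell 4, 7.86 RPM in cell 7 and 1.74 RPM in cell 8. Nrcam, a neuronal adhesion gene, was at 295 RPM and Homer1, the gene of a synaptic scaffold, at 315 RPM in cell 4.

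Channels and transmitter receptors were added in small numbers. Kcnip1, the gene of a potassium channel-binding calcium sensor, was at 772 RPM in cell 4 with no read in the 7. Fgf13, which encodes a protein that binds sodium channels, was at 480 RPM, and Scn9a, a sodium channel gene of sympathetic and pain neurons, at 82.5 RPM, again with no read in the 7. Chrna4, a nicotinic receptor subunit gene, was at 99.3 RPM in cell 4 with none in the 7. Chrnb2, its usual partner, was at 683 RPM in cell 4 but also at 104, 81.6 and 67.5 RPM in cells 3, 1 and 8. Chrna3, the nicotinic subunit gene of autonomic ganglia, was shared, at 553 RPM in cell 4 and 100 to 1430 RPM in the 7.

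Added genes also included several that belong to none of these groups. Golm1, a Golgi membrane protein gene, was at 1043 RPM, Gla, the gene of the lysosomal enzyme alpha-galactosidase, at 582 RPM, and Ldb2, the gene of a cofactor of LIM homeobox proteins, at 514 RPM. Cldn11 at 451 RPM encodes a tight junction claudin and Mmp2 at 383 RPM a matrix protease. Magel2, an imprinted gene, was at 340 RPM. Mki67, a marker of dividing cells, was at 149 RPM and the replication gene Mcm6 at 96.5 RPM, both with no read in the 7, while Ccnb1 and Top2a had no read in cell 4. The summed level of 28 cell cycle genes was 250 RPM in cell 4, inside the 0.463 to 356 RPM of the 7.

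**Figure D3:**
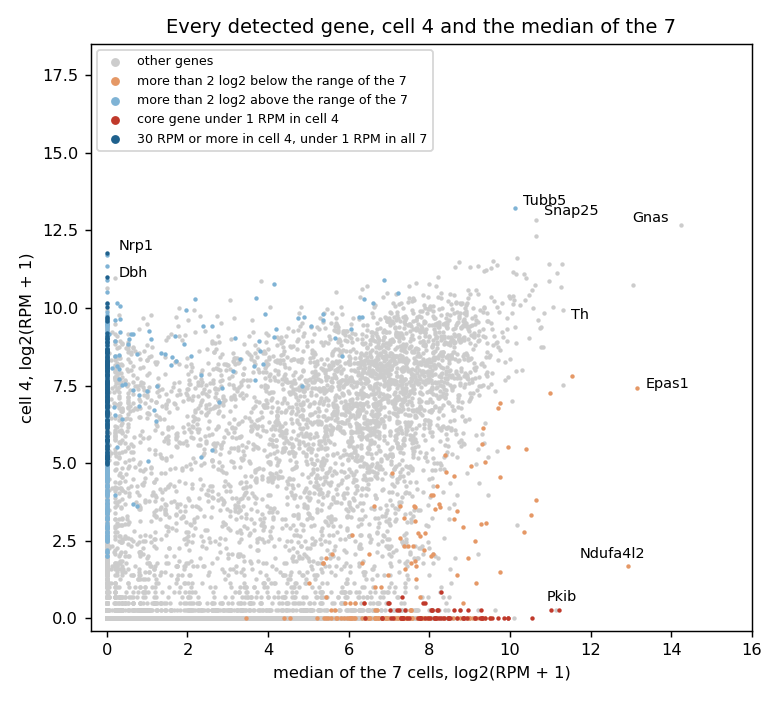
Each of the 10768 genes detected in any cell as a point, with the median of the 7 on the horizontal axis and cell 4 on the vertical axis, both log2(RPM + 1), and colours for genes outside the range of the 7, lacked or added. Ndufa4l2, Pkib and Epas1 lie far to the lower right, Nrp1 and Dbh at the upper left, and Gnas and Th near the diagonal.

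The label of cell 4 was set beside markers of related cells. Of 38 genes listed for sympathetic neurons, 26 were detected in cell 4, and 8 were above the range of the 7 (among them Dbh, Prph, Nefl, Tubb3, Scn9a, Stmn1 and Mapt), while 1 of 11 detected in all 7, Ntrk3, was below it. Over all genes these shares were 9.79% and 16.4%. The summed level of the list was 32265 RPM in cell 4 and 3884 to 13266 RPM in the 7. The list shares genes with the growth and tubulin lists, so these counts are not separate, and like the glomus list it was drawn up with earlier results known, so its count supports nothing about its direction. Of 10 chromaffin cell genes 8 were detected in cell 4, with Dbh above the range and Chgb below it, and their sum of 5251 RPM was inside the 2654 to 7322 RPM of the 7. Npy, the neuropeptide gene of many sympathetic neurons, was at 531 RPM in cell 4 and at 0 to 538 RPM in the 7, and Stmn2 was at 5111 RPM in cell 4 and 51.8 to 2220 RPM in the 7. Cell 4 thus carried the glomus cell label and the genes used to pick cells, with Olfr78 and Cox4i2 at 1 and 0 reads and Dbh, Prph and Nefl at levels not seen in the 7. It is called cell 4 here and is given no other name.

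Markers of further cell types were mixed. All 16 blood cell genes had no read in any of the 8 cells, and 11 of 14 petrosal sensory neuron genes had none. Of 14 sustentacular and Schwann cell genes, 1 was detected in cell 4, Mbp, at 282 RPM against 104 to 1295 RPM in the 7. Endothelial genes summed to 0 RPM in cell 4 and to 6.94 to 2730 RPM in the 7, where Cldn5 carried most, at 2730 RPM in cell 2, 851 RPM in cell 3 and 0 in cell 7. Of 13 mural cell genes, 3 were detected in all 7 (Rgs5, Cox4i2 and Ndufa4l2), which are also on the glomus list. All 3 were below the range in cell 4, beside 16.4% of all genes. The mural list summed to 46.9 RPM in cell 4 and to 4307 to 11815 RPM in the 7. Nearly all of each sum came from these 3 genes, and Cox4i2 and Ndufa4l2 are split markers, so the sum repeats the split. Acta2, another mural gene, was at 2.02 RPM in cell 4 and at 0 to 8.48 RPM in the 7. Pdgfrb had no read in cells 1, 4 and 8 and was at 350 RPM in cell 3. The part of other cells' RNA in these differences was not tested.

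**Figure D4:**
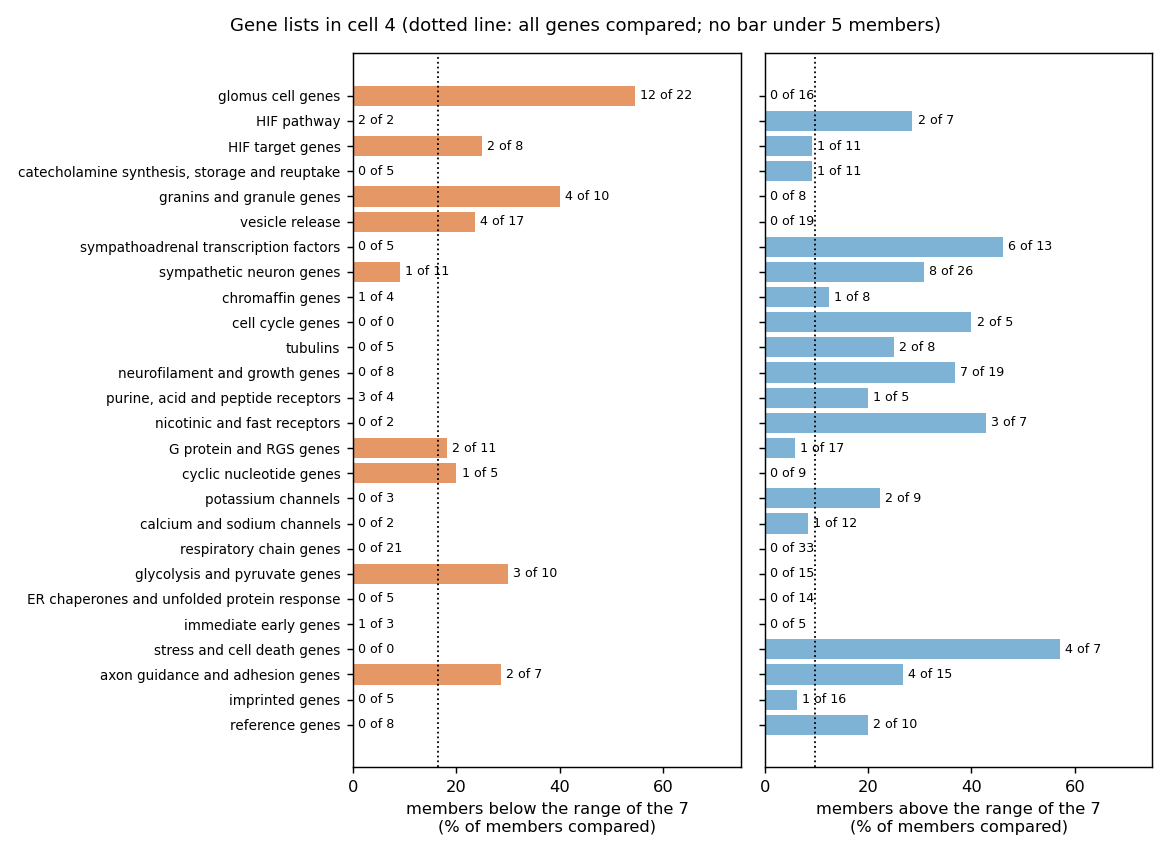
For each gene list with enough members, the percent of members more than 2 log2 units below the range of the 7 in cell 4 (left, of those detected in all 7) and above it (right, of those detected in cell 4), with the counts beside the bars and a dotted line for all genes. The glomus list reaches 12 of 22 on the left and 0 of 16 on the right, and the sympathoadrenal factors 0 of 5 and 6 of 13. The lists were drawn up with earlier results of these data known, so the counts only describe them.

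Of 18 genes of chaperones and the unfolded protein response, 14 were detected in cell 4 and none was outside the range by more than 2 log2 units. The chaperone genes Hspa5 and Hsp90b1 were at 987 and 1091 RPM in cell 4, both above the highest of the 7, at 782 and 736 RPM, but by less than that limit. Of 27 glycolysis and pyruvate genes, 3 of the 10 detected in all 7 (Pfkl, Pcx and Mdh1) were below the range, beside 16.4% of all genes. Of 23 immediate early genes, the first that cells switch on after a stimulus, 3 were detected in all 7 and 1 of these, Junb, was below the range. Fos was at 6103 RPM in cell 1 and had no read in cell 7, and was at 7.08 RPM in cell 4. Junb was at 75.1 to 861 RPM in the 7 and at 0.202 RPM in cell 4.

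Genes detected in all 8 cells also showed wide gaps. Cd81, a tetraspanin gene, was among the most even in the 7, at 675 to 1222 RPM, and was at 22.3 RPM in cell 4. Itm2b, the gene of a membrane protein expressed in most tissues, was at 1464 to 3382 RPM in the 7 and at 222 RPM in cell 4. Slc38a2, an amino acid transporter gene, was at 318 to 2117 RPM in the 7 and at 13.1 RPM in cell 4. In the other direction, Cadm1, a synaptic adhesion gene, was at 2881 RPM in cell 4 and at 183 to 1045 RPM in the 7, and Ppm1a, a phosphatase gene, was at 1913 RPM against 2.71 to 410 RPM.

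The same counts were made for every cell against the other 7. At the 30 RPM limit, cell 4 lacked 72 genes, cell 5 lacked 64 and cell 6 lacked 51 of those held by their other 7, and the remaining cells lacked 3 to 16. At 100 RPM cell 4 lacked 24, cell 5 lacked 19 and cell 6 lacked 9. At 300 RPM cell 4 lacked 7 genes and cell 2 lacked 1, and each of the other 6 lacked 0. Most of the 72 were therefore genes of lower levels, at which cells 5 and 6 missed nearly as many. The 12.9% lacked by cell 4 stood beside 11.1% for cell 5, whereas at 300 RPM it was 8.97% of 78 genes for cell 4 and at most 1.64% for another cell. Olfr78, which made the split, is among the genes lacked by cell 4 at each limit. The sets compared also differ, since for every other cell the other 7 include cell 4. At 300 RPM the other 7 all held 53 to 61 genes in those comparisons.

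For added genes the counts were closer. At 30 RPM cell 1 held 154 genes that were under 1 RPM in the other 7, more than the 143 of cell 4, and the 6 remaining cells held 48 to 134. At 100 RPM cell 4 held 94 and the others 30 to 64, and at 300 RPM cell 4 held 31, cell 6 held 21 and the others 2 to 10. By genes below the range of the other 7, cell 5 with 265 exceeded cell 4 with 230, and by genes above the range cell 1 with 562 and cell 8 with 506 exceeded cell 4 with 503. Cell 4 thus had the most lacked genes at each of the 3 limits and the most added genes at 100 and 300 RPM, with cell 5 close behind in lacked genes at 30 and 100 RPM. As shares of the genes each cell could have called, added genes at 30 RPM were 4.18% in cell 4 and at most 3.49% in another cell, genes above the range 9.79% and at most 8.08%, and genes below the range 16.4% and 18.2% in cell 5.

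**Figure D5:**
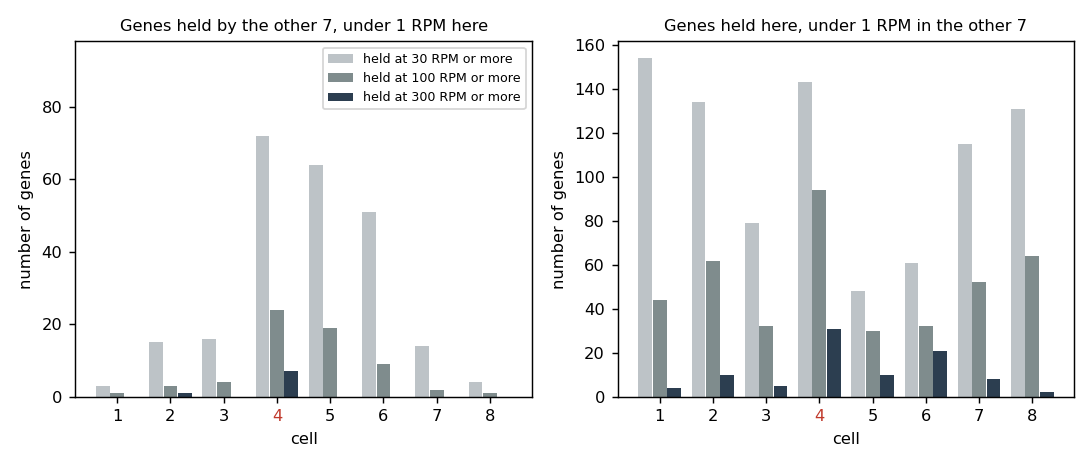
For each cell against the other 7, the number of genes that the other 7 all held and the cell had under 1 RPM (left), and the number that the cell held and the other 7 all had under 1 RPM (right), with bars for limits of 30, 100 and 300 RPM. Cell 4 has the highest bar at 300 RPM on both sides (7, Olfr78 included, and 31). At 30 RPM cell 5 comes close on the left and cell 1 is higher on the right.

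Over all 10768 detected genes, Spearman's correlation of cell 4 with each of the 7 was 0.275 to 0.357, with a median of 0.318. The 21 pairs among the 7 gave 0.364 to 0.459, with a median of 0.399. The ranges did not overlap, and the pairs share cells, genes and in part depth, so the values describe these libraries only. Genes at 30 RPM or more in cell 4 and in exactly 1 of the 7, with the rest under 1 RPM, numbered 31 for cell 8, 29 for cell 1, 20 for cell 7 and 5 to 10 for cells 2, 3, 5 and 6.

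The genes of the sex chromosomes also differed. Xist, which is expressed from the inactive X chromosome of female cells, was at 200 to 1251 RPM in cells 1, 3, 6, 7 and 8, had no read in cells 2 and 5, and had 1 read in cell 4. Eif2s3y, a gene of the Y chromosome, was at 573 RPM in cell 4 and at 39.7 RPM in cell 2, with 1 read in cell 5. Ddx3y, another gene of the Y chromosome, was at 356 RPM in cell 2 and had no read in cell 4. Uty, also on the Y chromosome, was at 2.43 RPM in cell 4, from 12 reads, and at 0.430 RPM in cell 2, whereas Kdm5d had no read in cell 4. The 7 thus included cells with Xist and a cell with reads of Y chromosome genes, and a part of sex in the differences was not tested.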

How the data were processed

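Single cells were profiled by RNA sequencing after PCR amplification. For each cell the authors deposited a read count and an RPM value for each of 24060 gene symbols, per the file headers. Recomputing RPM from each count and the total of its cell, scaled to 1000000 reads, gave back the deposited values to within 3.53e-06 RPM. It corrects for depth but not for transcript length, so an order of genes by RPM also depends on their length. Per the submitters' processing notes, Bowtie and the build mm10 were used for alignment. The counter, the annotation, the version of Bowtie and the treatment of reads that fit several places were not given in the sources used here, nor were molecular identifiers. The table holds 0 mitochondrially encoded symbols, and 25 symbols that had become dates were not named.

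The members, the gene lists and the rules were chosen with earlier results of these data known, so a count over a list supports nothing about its direction. Log2 levels are log2(RPM + 1), which understates differences near 0. A gene was below or above the range when cell 4 lay more than 2 log2 units outside the 7 cells. Lower limits on a fold set 3 reads in the library with none against the lowest of the 7, or, for added genes, against the shallowest of the 7. The text may name the 3 genes used to pick the cells, the split markers, the 20 core genes with the highest lowest level, the 30 such lacked genes, the 30 highest added genes, the 15 largest gaps in each direction among genes detected in all 8 cells, and list members that were outside the range or among the 4 highest on either side, together with sex genes and mitochondrial subunits. Of these 300 genes 293 had a position in GENCODE M21, and 42 shared over 10% of their transcript (at 97% identity over 50 bases) with another gene. The counts were tested on simulated data. Python 3.11.15, numpy 2.4.6, pandas 2.3.3, scipy 1.17.1 and matplotlib 3.10.9 were used.

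The 8 cells count as 1 sample, so no p-value or standard error was computed. Limits of 10, 100 and 300 RPM, other gaps and pseudocounts, median-ratio scaling, thinning every cell to 3960200 reads and leaving out each of the 7 cells were tried. Many genes that these rules allow are not reported here.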

Additional observations from a re-analysis of the deposited data

Results flagged for a closer look

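Of 63 measures screened, 11 had 1 cell farther from the others than the limit of Dixon's gap rule, which chance alone exceeds in about 1 in 20 groups of independent samples. These cells are not independent samples and many lists share genes, so the gaps only describe which cell stood apart. The gap is given as a share of the whole range. For cell 4 it was 0.573 for the median Spearman correlation with the other cells, 0.650 for summed sympathoadrenal transcription factors, 0.669 for sympathetic neuron genes, 0.800 for tubulins, 0.712 for neurofilament and growth genes, 0.531 for axon guidance and adhesion genes and 0.738 for reference genes, a list that holds Tubb5. The neuron, growth, tubulin and reference lists share genes, so these gaps are not separate. Cell 2 stood apart in total reads, with 0.881, in summed endothelial genes, with 0.595, and, among the 7, in a low level of Rgs4, with 0.702. Cell 6 stood apart in summed acid-base genes, with 0.561.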

How the results depend on the processing

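No named gene that lay outside the range of the 7 changed direction in any alternative run. No gene list that was rerun did either, apart from values close to 0, which were not screened. Changes of sign in the other named genes were not screened. At limits of 10, 100 and 300 RPM, the last chosen after seeing the data, the core held 842, 273 and 78 genes, cell 4 lacked 114, 24 and 7 of them, and at 100 and 300 RPM it added 94 and 31, since higher limits admit fewer genes. Genes below the range numbered 113 with a pseudocount of 10 RPM, and those above it 869 and 334 with gaps of 1 and 3 log2 units. The median correlation of cell 4 with the 7 was 0.289 over genes at 10 RPM or more. With a pseudocount of 0.1 RPM the median log2 difference was -11.7 for the split markers, 8.71 for sympathoadrenal factors, 2.45 for sympathetic neuron genes, -6.64 for mural cell genes, 1.07 for cell cycle genes, 2.08 for tubulins, 0.95 for nicotinic and fast receptors, -1.69 for neuropeptides, 1.498 for imprinted genes and 0.56 for reference genes. With median-ratio scaling it was 5.31 for sympathoadrenal factors and 1.94 for sympathetic neuron genes.

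Leaving out each of the 7 cells in turn gave 78 to 113 lacked genes, with 113 without cell 6, and 241 to 347 genes below the range, with 346 and 347 without cells 5 and 6. The median log2 difference then ranged from -0.716 to -0.049 for G protein and RGS genes, -0.67 to 0 for acid-base genes, 0.085 to 0.266 for cell cycle genes, -0.24 to 0 for cyclic nucleotide genes, -0.66 to -0.10 for glycolysis genes, 0.67 to 1.08 for imprinted genes, -5.32 to -3.72 for mural cell genes, 1.68 to 1.91 for sympathetic neuron genes and -1.34 to -0.42 for vesicle release. The counts of lacked genes and of genes below the range cannot fall when a cell is left out, since the range is then taken over fewer cells. The effect of the limits and gaps also follows from their construction. For the other changes the cause was not tested. No paired analysis was possible because all cells are in 1 group. Depth limits what a missing gene can mean: 3 reads are 0.607 RPM in cell 4.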

Other observations

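Genes of the stress and cell death list, which the text above does not describe, were detected in small numbers. None of the 20 was detected in all 7 cells, 7 were detected in cell 4, and 4 of those, Trp53, Txnip and Bcl2 among them, were more than 2 log2 units above the range of the 7. Trp53, the gene of the p53 protein, was at 111 RPM in cell 4 and at 13.9 RPM in cell 7, with 13.6% of its transcript shared with other genes. Bcl2, a survival gene, was at 16.2 RPM in cell 4 with no read in the 7. The summed level of the list was 1780 RPM in cell 4 and 168 to 1055 RPM in the 7.

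Potassium channel genes differed at single members. Kcnk2, the gene of a stretch-sensitive channel of the same family as Kcnk3, was at 279 RPM in cell 4 and at 66.4 RPM in cell 1, with no read in the other 6. Gnai2, an inhibitory G protein subunit gene, was at 13.4 to 2124 RPM in the 7 and at 0.405 RPM in cell 4. Prkar1a, the gene of a regulatory subunit of protein kinase A, was at 499 to 1921 RPM in the 7 and at 122 RPM in cell 4.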
